A study of Mus musculus with 3 samples.

Results

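The Myb locus was taken as the stretch of mouse chromosome 10 from 20800000 to 21020000 (build mm9), a window of 220 kb. It holds Myb, at about 20.84 to 20.88 Mb on the minus strand, and the interval from the 5′ end of Myb toward Hbs1l. Members were all deposited peak regions of 2 histone marks that overlapped this window, which gave 41 of 93413 H3K27ac regions and 49 of 155027 H3K4me1 regions. Membership used position only, while the locus itself was chosen with earlier results of these data known. Chromatin came from hematopoietic stem cells of C57BL/6 mice aged 24 months, isolated from bone marrow as SP-KSL-CD150+ cells, and no genotype or treatment is given beyond the strain. SP stands for the dye-excluding side population, KSL for cells with c-Kit and Sca-1 and without lineage markers, and CD150 for a stem cell surface antigen. Each mark was profiled by chromatin immunoprecipitation sequencing in 1 library, labelled a technical replicate (biological replicate 1), and an input library that went with them was not analysed here. There is therefore no replicate check on any value below and no p-value. The files hold no expression, so the sorted cell type was not checked against marker genes.

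Myb encodes c-Myb, a DNA-binding transcription factor that stem and progenitor cells of the blood need for self-renewal, proliferation and lineage choice, and whose level falls as blood cells mature. In mouse erythroid cells the gene is known to be controlled by distant enhancers in the interval toward Hbs1l, which bind GATA1, TAL1, LDB1 and KLF1 and contact the promoter, and by a block to elongation in the first intron. H3K27ac is an acetylation of active promoters and enhancers, and H3K4me1 is a methylation of enhancers and of the sides of active promoters. Of the neighbours, Ahi1 encodes a ciliary protein and Hbs1l a factor that rescues stalled ribosomes. In the RefSeq gene order (GRCm38.p6) Ahi1 precedes Myb, and 4 lncRNA genes (Gm40608, Gm33619, Gm33671 and Gm33728), 1 pseudogene (Gm2467) and 0 protein-coding genes lie between Myb and Hbs1l. These genes were not placed on mm9, so the only gene position used is that of Myb, rounded to 10 kb, and distances from its 5′ end (20.88 Mb) share that rounding.

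The sequence just before the Myb start site is shown because the acetylation around the 5′ end is described below. It is the 250 bases before the RefSeq start site, chr10:21160985-21161234 on the minus strand of GRCm38.p6, a build whose coordinates cannot be set beside the mm9 positions of the regions. Capitals mark matches to an ETS core and to GC boxes.
Myb promoter: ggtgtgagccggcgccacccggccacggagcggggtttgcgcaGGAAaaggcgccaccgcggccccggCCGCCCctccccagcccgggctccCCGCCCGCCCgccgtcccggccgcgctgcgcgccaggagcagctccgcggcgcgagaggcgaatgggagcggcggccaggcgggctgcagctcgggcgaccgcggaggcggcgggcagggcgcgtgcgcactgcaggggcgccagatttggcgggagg
G and C made up 81.2% of these bases, against a median of 52.4% over the same 250 bases of 32851 RefSeq promoters, and 99.1% of promoters were below it. It held 40 CpG dinucleotides, an observed to expected ratio of 0.975 against a median of 0.373. Both strands were searched. The GC box (GGGCGG), the site of SP1-like factors, matched 3 times on the opposite strand, with 2 of the matches overlapping, and 32.7% of promoters held at least 1 match. The ETS core (GGAA) matched 1 time, and 93.4% of promoters held it. There were 0 matches to the CCAAT box (CCAAT, in 33.8% of promoters), the E-box (CANNTG, 66.2%), the MYB motif (AACNG, 74.2%), the GATA motif (GATAA, 22.6%) and the RUNX motif (TGTGGT, 14.05%). A match is a run of letters and not a bound site.

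The window around Myb was densely marked, and more so by H3K4me1 than by H3K27ac. H3K4me1 covered 72.9 kb (33.1% of the window) and H3K27ac 18.9 kb (8.59%), against 7.19% and 2.34% of chromosome 10 up to its last region. Among 11218 windows of 220 kb tiled over the 19 autosomes, it ranked 225th by H3K4me1 length and 646th by H3K27ac length. Of these windows, 2483 held no H3K4me1 and 3186 no H3K27ac. The median window held 7.27 kb of H3K4me1 and 1.69 kb of H3K27ac. There were 0.259 kb of H3K27ac per kb of H3K4me1 in the Myb window and 0.322 in the whole lists. The regions were numerous but ordinary in strength, with a median fold of 3.84 for H3K27ac (3.86 in the whole list) and 4.23 for H3K4me1 (4.12 in the whole list). Fold is the authors' own value from their peak caller, the pileup at the summit over the local background. A summit held a median of 13 H3K27ac reads (range 9 to 61) and 20 H3K4me1 reads (range 12 to 47) in the window, recovered from fold and p. At −log10 q of at least 5, 15 of the 41 H3K27ac regions were left, and the rank by H3K27ac length was 1013.

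**Figure D1:**
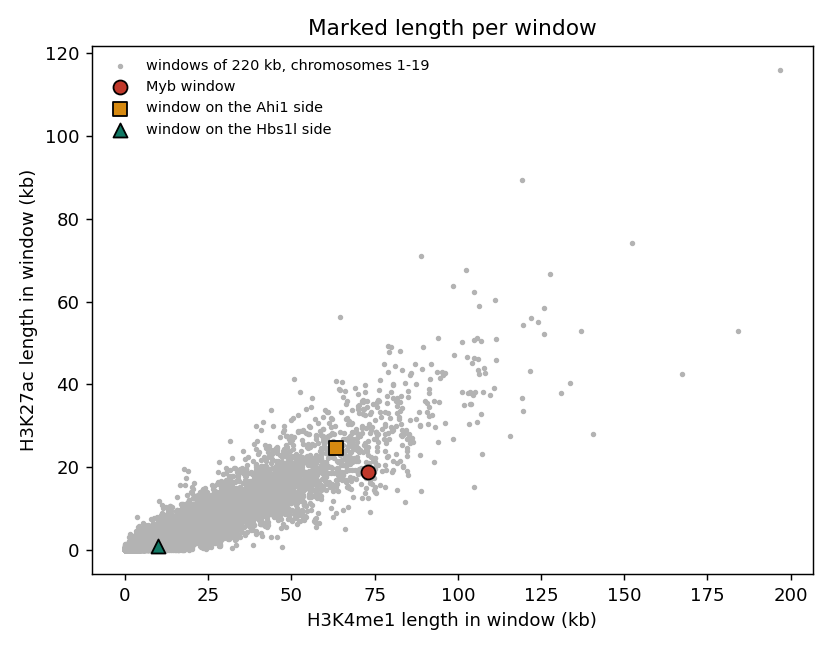
Each grey point is 1 autosomal window of 220 kb, with its H3K4me1 length on the x axis and its H3K27ac length on the y axis, both in kb. The Myb window (72.9 and 18.9 kb) and the window on the Ahi1 side (63.4 and 24.7 kb) lie far from the origin, and the window on the Hbs1l side (9.94 and 1.12 kb) lies near it.

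Beyond the Hbs1l edge both marks covered less than in the Myb window. The next 220 kb held 5 H3K27ac and 12 H3K4me1 regions, covering 1.12 and 9.94 kb, which is near the median autosomal window (4 and 9 regions, 1.69 and 7.27 kb). The 220 kb on the other side, toward Ahi1, held 39 and 35 regions covering 24.7 and 63.4 kb, and the acetylated length per kb of H3K4me1 was 0.389 there against 0.113 on the Hbs1l side. At the Ahi1 edge the marks ran across the boundary. The nearest H3K27ac region outside lay 1.45 kb from the window (3.76-fold), and an H3K27ac region of 3.25-fold spanned the edge itself, from 20799928 to 20800189. The nearest H3K4me1 region outside was 8908 bp wide, had a fold of 9.06 and ended 1.22 kb from the window. At the Hbs1l edge the nearest outside regions were an H3K4me1 region of 2.53-fold at 1.28 kb and an H3K27ac region of 3.48-fold at 21.0 kb.

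By fold, the strongest acetylation of the locus lay away from the 5′ end of Myb. Of the 41 H3K27ac regions, 7 reached 6-fold (17.1%, against 18.7% of the whole list) and 3 reached 10-fold (7.32%, against 7.77%), so these shares were close to the background. For H3K4me1, 13 of 49 regions reached 6-fold (26.5%, interval 14.9 to 41.1%, against 20.7%), 5 reached 8-fold (against 6.25%) and 1 reached 10-fold (2.04%, against 1.12%). The 6-fold interval covers the share in the list. The highest fold, 17.7 with 59 summit reads, belonged to a region of 1508 bp from 21015442 to 21016949, near the Hbs1l edge and about 136 kb from the 5′ end. The second, 14.9-fold with 61 reads, lay from 20906054 to 20907470, about 27 kb upstream of the gene. The third, 10.05-fold with 33 reads, lay from 20806229 to 20807207, on the Ahi1 side and past the 3′ end of Myb. The strongest region within 5 kb of the 5′ end had a fold of 6.78 and 25 reads. By reads in place of fold the 2 strongest regions change places, because the background at 27 kb was 1.32 times that of the genome. The 17.7-fold summit ranked 1522nd and the 14.9-fold summit 2761st of 93413. Neither summit was assigned to a gene, because only Myb was placed on mm9.

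**Figure D2:**
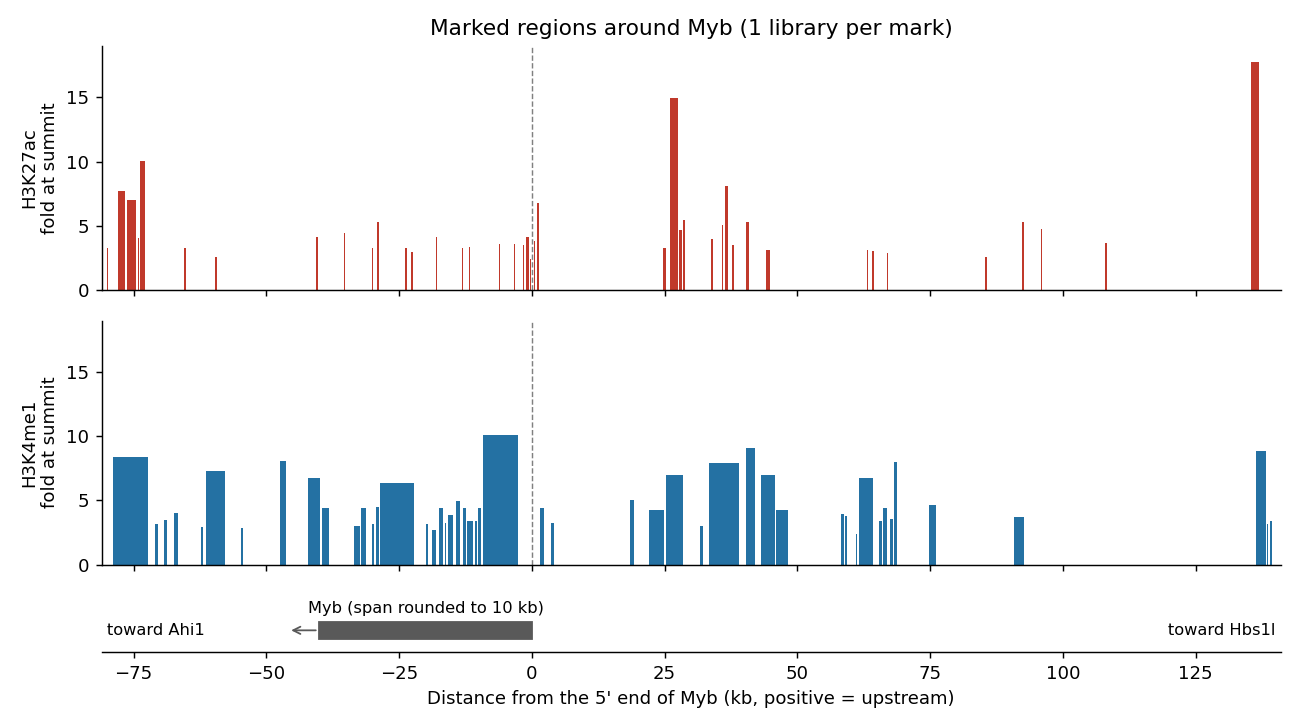
Each bar is 1 region, drawn to its width along the locus and as high as its fold over local background at the summit, for H3K27ac (top) and H3K4me1 (middle). The x axis is the distance from the 5′ end of Myb in kb, positive upstream, and the grey box is the span of Myb. The tallest H3K27ac bars (17.7, 14.9 and 10.05-fold) stand outside the gene, and the tallest H3K4me1 bar (10.1-fold) stands inside it.

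Around the 5′ end of Myb, acetylation sat in a stretch without H3K4me1. Within 5 kb of this end there were 6 H3K27ac regions, each 195 to 560 bp wide, and 5 of the 6 met no H3K4me1 region. Thus 1 of 6 met it (interval 0.421 to 64.1%), against 71.7% of the whole list. The 5 lay side by side in a single stretch and are not independent. H3K27ac covered 18.7% of the 10 kb around the 5′ end, the highest cover of the stretches. It covered 13.7% on the 3′ side, 7.01% in the gene and 6.72% upstream. The strongest of the 6 lay from 20880927 to 20881426 (6.78-fold, 25 reads). The next, from 20878829 to 20879388, had a fold of 4.14 and 13 reads. The others followed from 20880427 to 20880621 (3.84-fold, 12 reads), from 20876563 to 20876760 (3.55-fold, 11 reads) and from 20878308 to 20878510 (3.48-fold, 11 reads). The weakest, from 20879638 to 20879855, had a fold of 2.44 with 13 reads, where the local background was 1.98 times that of the genome. The median fold of the 6 was 3.69, close to that of the whole list. Of the 6, 5 had a −log10 q under 5, as did 26 of the 41 regions of the window (63.4%) and 58.6% of the whole list.

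The H3K4me1-free stretch ran from 20877377 to 20881474, a length of 4.10 kb, and the 5 acetylated regions inside it covered 40.9% of it. The weakest H3K4me1 summit in the whole list had 10 reads, so a stretch without a region may still hold fewer reads than that. On the gene side it was bounded by the strongest H3K4me1 region of the locus, from 20870834 to 20877376, which was 6543 bp wide and reached 10.1-fold with 47 reads. On the upstream side it was bounded by a region of 792 bp from 20881475 to 20882266, of 4.39-fold and 25 reads. A further small region followed from 20883541 to 20884258 (3.23-fold). H3K4me1 was thus higher and broader on the side of the gene body than on the upstream side. The acetylation summit at 6.78-fold had H3K4me1 at 1 kb upstream and none at 1 kb toward the gene.

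**Figure D3:**
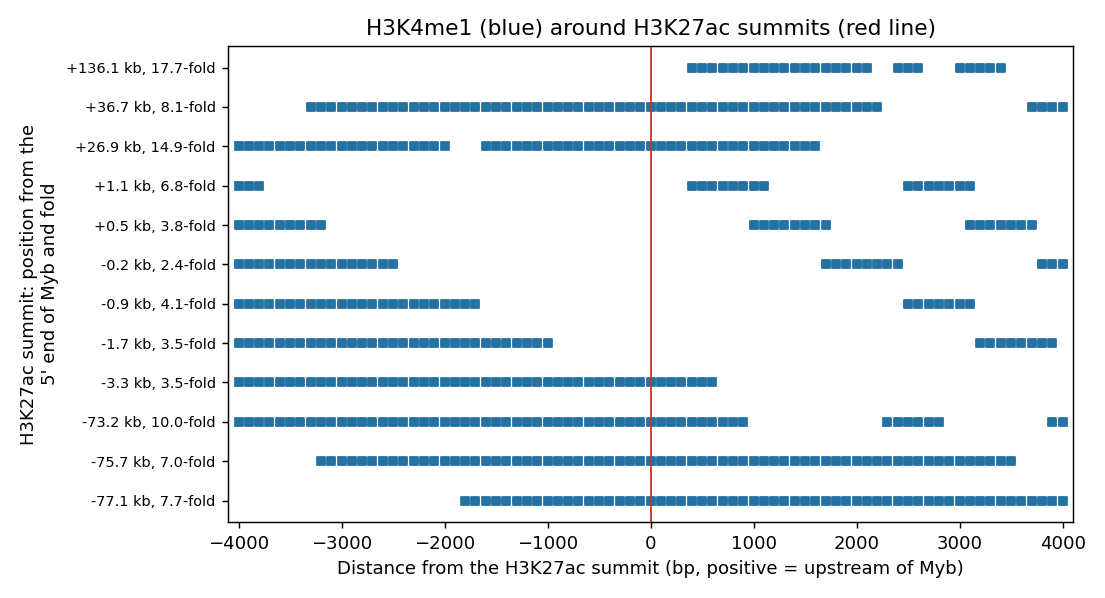
Each row is 1 H3K27ac summit, either of 6-fold or more or within 5 kb of the 5′ end of Myb, labelled with its position in kb from that end and its fold. Blue squares mark positions inside an H3K4me1 region, in steps of 100 bp up to 4000 bp to either side of the summit, with positive distances upstream of Myb. Blue runs across the red line at 14.9, 10.05, 8.08, 7.68 and 7.04-fold and at the 3.5-fold summit 3.3 kb inside the gene, and is missing at the line in the 5 other rows near the 5′ end and at 17.7-fold.

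Across the gene body H3K4me1 cover was high, while acetylated cover was close to that upstream of the gene. In the 35 kb of the gene span beyond 5 kb from the 5′ end, H3K4me1 covered 61.7% and H3K27ac 7.01%, against 23.3% and 6.72% in the upstream interval, and H3K27ac covered 2.34% of chromosome 10. In the gene there were 8.81 kb of H3K4me1 per kb of H3K27ac. The same ratio was 3.46 in the upstream interval and 2.92 on the 3′ side. The 17 H3K4me1 regions with a summit here ranged from 2.74-fold to 10.1-fold. After the region of 10.1-fold, the strongest were one of 6345 bp from 20851404 to 20857748 (6.33-fold, 35 reads) and one of 689 bp from 20865718 to 20866406 (4.98-fold, 25 reads). The 9 H3K27ac regions were 186 to 477 bp wide with a median fold of 3.35, and 0 of them reached 6-fold. The strongest had a fold of 5.32 and lay from 20850929 to 20851171, inside H3K4me1. The next, of 4.43-fold, lay from 20844593 to 20844778, near the 3′ end of the gene, and met no H3K4me1. The region from 20861946 to 20862158 (4.14-fold) met an H3K4me1 region at its edge only, over 9.39% of its width. Of these 9 regions, 7 had a −log10 q under 5 (interval 39.99 to 97.2%, against 58.6% of the whole list).

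**Figure D4:**
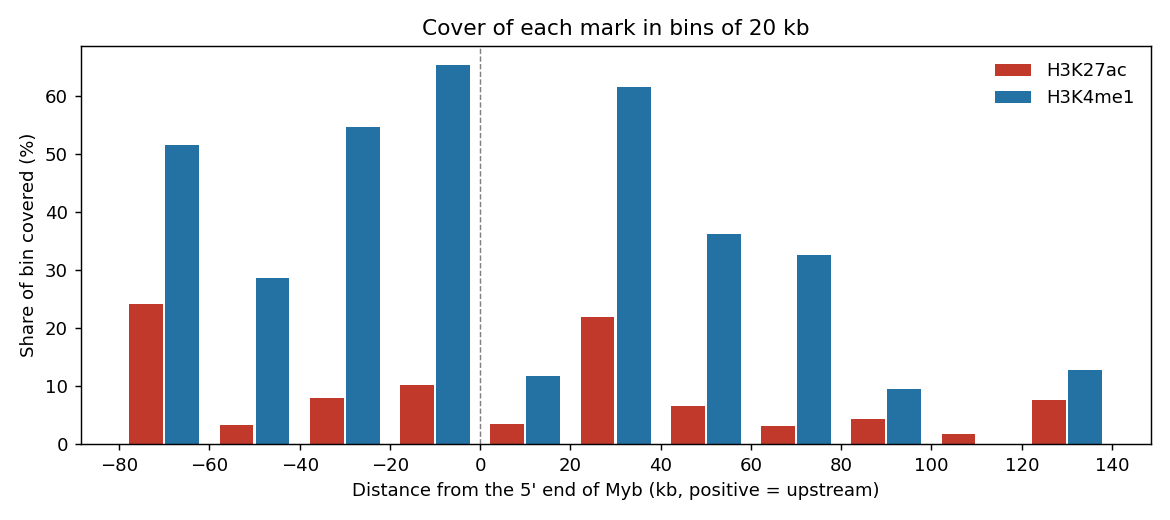
Bars give the share of each 20 kb bin covered by H3K27ac (red) and by H3K4me1 (blue), in percent, against the distance from the 5′ end of Myb in kb, positive upstream. H3K4me1 is highest in the gene bin next to the 5′ end (65.3%) and from 20 to 40 kb upstream (61.6%), and H3K27ac is highest in the bin farthest past the 3′ end (24.2%) and from 20 to 40 kb upstream (21.9%). Bins meet at the 5′ end, so the H3K27ac regions around it are split between 2 bins (10.1% and 3.475%).

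Upstream of Myb, after a sparse stretch, both marks were dense again in a cluster. There was no H3K27ac for 23.3 kb, from 20881427 to 20904774, and no region of either mark for 14.1 kb of it, from 20884259 to 20898403. The cluster then held 10 H3K27ac regions between 20904775 and 20924820, a span of 20.05 kb of which 28.3% was acetylated and 64.5% lay in H3K4me1. Its leading region is the one of 14.9-fold, about 27 kb upstream, which lay wholly inside an H3K4me1 region from 20905243 to 20908541 (6.95-fold). About 10 kb farther, a region of 8.08-fold and 30 reads lay from 20916471 to 20916923, inside an H3K4me1 region 5577 bp wide whose summit (7.89-fold) was 211 bp away. At about 40 kb a 5.32-fold H3K27ac region lay in the H3K4me1 region of highest fold upstream, from 20920355 to 20922054 (9.06-fold, 42 reads). The last H3K27ac region of the cluster, at about 45 kb, was weak at 3.14-fold, and its summit lay 56 bp from an H3K4me1 summit of 6.95-fold.

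With neighbouring H3K27ac regions stitched across at most 12.5 kb, the window held parts or all of 6 domains. The upstream cluster was 1 of them and ranked 2014th of 30221 by acetylated length (5.68 kb). Of the 30221 domains, 14839 were single regions, and the median acetylated length was 0.719 kb. The domain over the gene and its 5′ end, from 20839385 to 20881426, held 16 regions and ranked 2535th with 4.73 kb. At −log10 q of at least 5, domains of 0.429 kb (rank 15430 of 18750) and 0.5 kb (rank 14780) were left of it, and the upstream cluster kept 3.69 kb (rank 2331). Gaps of up to 5 kb split the domain over the gene into 3, with at most 2.07 kb in one, and left the upstream cluster whole (rank 1326 of 45758). The domain on the Ahi1 side ranked 188th with 21.7 kb, but it began at 20745739, outside the window. With gaps of up to 5 kb there were 12 domains and with gaps of up to 20 kb 3.

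Farther upstream, H3K4me1 cover was high at first and then lower, with H3K27ac cover between 1.83% and 7.54% in bins of 20 kb. Chromosome 10 as a whole had 2.34% H3K27ac and 7.19% H3K4me1 cover. From 60 to 80 kb upstream H3K4me1 covered 32.7% of the interval and H3K27ac 3.23%, with 3 H3K27ac regions of 2.87-fold to 3.14-fold. An H3K4me1 region of 7.99-fold and 40 reads lay there from 20948270 to 20948811, only 542 bp wide, and met no H3K27ac. From 80 to 100 kb H3K4me1 covered 9.52% and H3K27ac 4.36%, and from 100 to 120 kb there was 1 H3K27ac region (1.83% cover) and 0 H3K4me1 regions. From 120 to 140 kb the marks covered 7.54% and 12.7%. The H3K27ac region of 5.32-fold from 20972297 to 20972647, about 92 kb upstream, lay inside the single H3K4me1 region between 80 and 100 kb (3.72-fold). The next, of 4.73-fold, from 20975823 to 20976146, met no H3K4me1. Between 20988286 and 21015441, 27.2 kb carried neither mark, and H3K4me1 was missing for 43.6 kb from 20972737 to 21016363.

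The region of 17.7-fold at the Hbs1l edge stood alone among H3K27ac regions. It was the only H3K27ac region in the last 20 kb of the window, and the next one upstream lay past the window. H3K4me1 covered 38.9% of it, all on the side away from Myb. The H3K4me1 region there ran from 21016364 to 21018192, reached 8.82-fold with 45 reads, and had its summit 890 bp from the H3K27ac summit. H3K4me1 was present at 1 kb on the far side of the acetylation summit and absent at the summit and at 1 kb toward Myb. Of the 3 regions of 10-fold or more, this was the one whose summit lay outside H3K4me1. The summits of 14.9-fold and 10.05-fold lay inside it, a position that 25.6% of the 7255 H3K27ac regions of 10-fold or more in the whole list had. Hbs1l was not placed on mm9, so whether the 17.7-fold region lies at the Hbs1l start site was not tested.

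On the other side of Myb, past its 3′ end, the marks formed a compact block at the Ahi1 edge. Within a single H3K4me1 region of 6748 bp, from 20801063 to 20807810 (8.35-fold, 43 reads), there were 4 H3K27ac regions that together filled 63.9% of it. These had folds of 10.05 (33 reads), 7.68 (25 reads, from 20802109 to 20803395), 7.04 (26 reads, from 20803741 to 20805508) and 4.03 (15 reads). The 7.04-fold region, at 1768 bp, was the widest H3K27ac region of the locus. Between this block and the gene, H3K27ac covered 3.27% and H3K4me1 28.6% of the bin from 40 to 60 kb past the 5′ end. The H3K4me1 region from 20818623 to 20822159 reached 7.28-fold and met 1 weak H3K27ac region of 2.61-fold. The region from 20832510 to 20833786 reached 8.05-fold with 41 reads and met none, the only one of the 5 H3K4me1 regions of 8-fold or more in the window to do so. In the whole list 84.1% of H3K4me1 regions of 8-fold or more met H3K27ac.

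**Figure D5:**
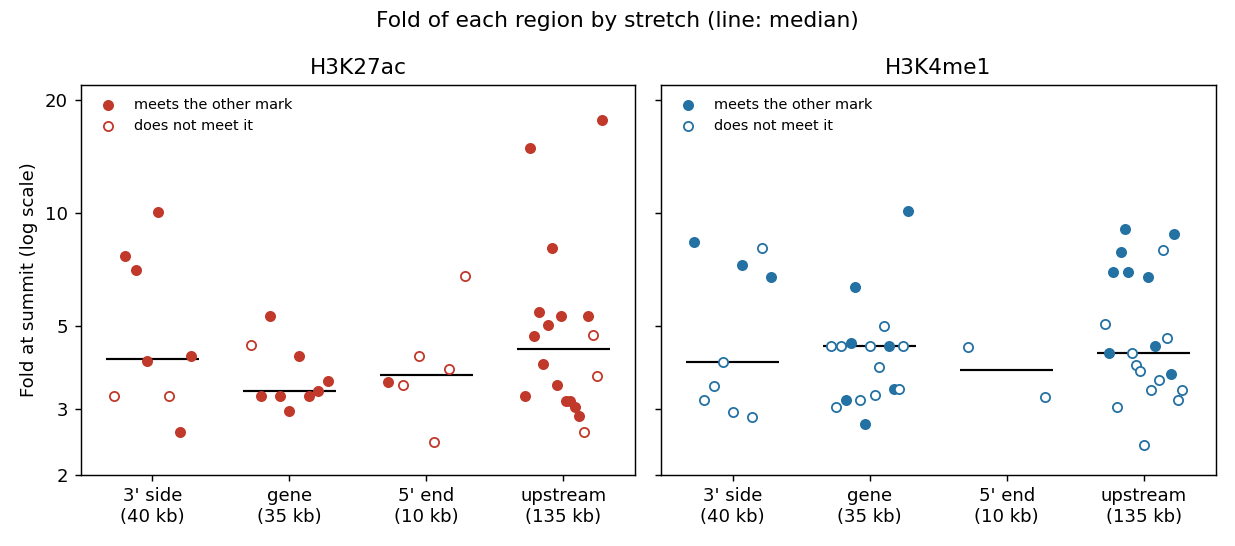
Each point is 1 region, with its fold at the summit on a log axis, by the stretch of the window that holds its summit. Filled points meet the other mark, open points do not, and black lines are medians. H3K27ac near the 5′ end is mostly open and below 7-fold, and the H3K27ac points above 14-fold lie upstream.

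Over the whole locus the marks met about as often as in the rest of the genome. Of the 41 H3K27ac regions, 30 shared at least 1 bp with H3K4me1 (73.2%, exact Clopper-Pearson 95% interval 57.1 to 85.8%), against 71.7% of the whole list. Of the 49 H3K4me1 regions, 19 met H3K27ac (38.8%, interval 25.2 to 53.8%), against 33.6%. The intervals cover counting error only, and neighbouring regions of 1 locus are not independent samples. The summit itself lay inside H3K4me1 for 25 of the 41 H3K27ac regions (61.0%, against 58.2%), and 6 of the 49 H3K4me1 summits lay inside H3K27ac (12.2%, against 16.8%). By stretch, the share of H3K27ac regions meeting H3K4me1 was 6 of 8 on the 3′ side, 8 of 9 in the gene, 1 of 6 at the 5′ end and 15 of 18 upstream. The counts are small, with intervals of 0.421 to 64.1% at the 5′ end and 58.6 to 96.4% upstream. The 6 H3K4me1 regions that met 2 or more H3K27ac regions were the broad ones, with a median width of 5961 bp, against 1700 bp for the 13 that met 1 and 595 bp for the 30 that met none. Width by itself makes a meeting likelier. Where the marks met, the median distance from an H3K27ac summit to the nearest H3K4me1 summit was 804 bp (30 regions), against 513 bp in the whole list. The quartiles overlapped, at 341.5 to 1634 bp in the window and 194 to 988 bp in the list. Some of the 30 regions lay in the same broad H3K4me1 region and are not independent.

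A raised local background, over 1.1 times that of the genome, was found at 17 of the 41 H3K27ac summits (41.5%, against 24.2% of the whole list) and 25 of the 49 H3K4me1 summits (51.0%, against 34.7%). For H3K27ac it was found at 10 of 18 summits upstream, 2 of 6 around the 5′ end, 2 of 9 in the gene and 3 of 8 on the 3′ side. A raised background lowers the fold for the same number of reads, and its part in the differences between stretches was not tested.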

How the data were processed

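Peak lists of H3K27ac and H3K4me1, called on 1 library each, were used. The submitters' processing notes name Bowtie2 2.0.6, MACS2 2.0.10.20131216 and mm9. Read filters, caller options and the control used are not given in the sources used here. As deposited, the authors' fold is a ratio of summit pileup to the local background set by the caller. Whether that background came from the input library is not given in those sources. Per summit, the authors also deposited −log10 p and −log10 q (lowest q values 1.30 and 1.31 on that scale). The deposited score was not used. Positions are printed counting from 1.

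Reads at each summit were recovered by taking fold as (reads + 1)/(background + 1) and p as the Poisson probability of more reads. A whole number of reads matched the deposited −log10 p within 0.001 at 93413 of 93413 H3K27ac and 155027 of 155027 H3K4me1 summits. The background of the genome was taken as the commonest local background over all summits of a mark. It was 2.38 H3K27ac and 3.75 H3K4me1 reads, and nothing was measured away from peaks. Read recovery and interval functions were tested on simulated data. Regions met when they shared at least 1 bp. Tiled windows ended at the last region of each chromosome.

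Named regions were those within 5 kb of the 5′ end (H3K27ac), the 3 of highest fold per other stretch and mark, the 3 widest per mark, and H3K27ac regions of 4-fold or more and H3K4me1 regions of 8-fold or more that met no other mark. Others, among them partners of these regions, were named after their values were seen. The locus, lists and limits were chosen with earlier results of these data known. The planned comparison with other blood genes was not made, for lack of gene positions on mm9. Alternatives changed the q threshold, overlap rule, number and joining of regions, window offset and domain gap. Analyses ran in Python 3.11.15 with scipy 1.17.1, numpy 2.4.6, matplotlib 3.10.9 and pandas 2.3.3.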

Additional observations from a re-analysis of the deposited data

How the results depend on the processing

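Of 35 alternative values for 10 results, 20 stayed within the counting interval (shares) or a factor of 1.5 (counts, lengths, ranks and ratios) and 15 moved. At −log10 q of at least 5 the window held 15 H3K27ac and 31 H3K4me1 regions. There 10.8 kb was acetylated, and the rank by acetylated length was 1013. Of the 31 H3K4me1 regions, 7 met H3K27ac (22.6%, interval 9.59 to 41.1%). At 10 the window held 8 and 17 regions, and 8.37 kb was acetylated. The shares were 7 of 8 for H3K27ac (87.5%, interval 47.3 to 99.7%) and 4 of 17 for H3K4me1 (23.5%, interval 6.81 to 49.9%). Equal numbers of regions in both lists left 31 H3K4me1 regions, and joining over 1 kb left 25 regions of each mark. Gaps of up to 5 kb gave 12 domains and of up to 20 kb 3. The counts of regions and domains and the acetylated length moved by construction, because regions were left out or joined differently. Why the shares and the rank moved was not tested. Shares of the whole lists were not taken under the alternatives, so whether they move in the same way is not known. Under every overlap, threshold and joining rule tried, H3K27ac regions met H3K4me1 more often than the reverse. This order is not particular to the locus, since the whole lists gave 71.7% for H3K27ac and 33.6% for H3K4me1. With equal numbers of regions in both lists the shares in the window were 65.9% and 51.6%. At −log10 q of at least 5, 1 of the 6 H3K27ac regions around the 5′ end was left, beside 15 of 41 in the window. Depth limits regions without a partner, because no H3K27ac summit with fewer than 8 reads was called in the whole list. No paired analysis was possible because there is 1 library for each mark.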
